A study of Mus musculus with 391 samples.

Results

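The 10 genes described here encode collagens, laminin chains and linker proteins of the endothelial basement membrane: Col4a1, Col4a2, Col13a1, Col15a1, Col18a1, Hspg2, Nid1, Lama4, Lamb1 and Lamc1. They were listed by name, with earlier results of these data known. Each one had a row among the 56941 genes of the deposited read count table. The table held 391 single cells of adult mouse brain, obtained by digesting isolated vascular fragments, sorting cells into wells and applying Smart-seq2, a full-length RNA sequencing protocol. The labels put 111 cells in an endothelial class, coded CP-EC in the deposited cell table, and 280 in a microglia class, coded MG. Endothelial cells line blood vessels, and microglia are macrophages that reside in brain tissue. Strain, sex, exact age and any treatment were not given in the sources used here, and no label ties a cell to an animal.

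A basement membrane is a thin sheet of matrix on the outer face of the endothelium. Laminins, each made of an alpha, a beta and a gamma chain, form a network bound to the cell surface, and collagen IV forms a separate, covalently linked network that gives tensile strength. Nidogens and the heparan sulfate proteoglycan perlecan bind to both networks. In brain vessels the endothelium shares its basement membrane with pericytes, and both cell types are known to contribute components.

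Because cells of a class are not replicates of it, each class is 1 sample. No test between the classes was possible, and no p-value is given. Levels are CPM, a gene's reads summed over the cells of a class per 1000000 gene reads, with exact Poisson 95% intervals that cover counting error only; the reads carry no molecular identifiers. Log2 ratios are endothelial over microglia on the log2(CPM + 1) scale, which understates ratios of low genes. Calls of 4-fold are made on that scale, while folds printed with an interval are ratios of CPM without the added 1.

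Depth was 83954 to 602175 gene reads per endothelial cell (median 174345) and 39876 to 504875 per microglia cell (median 146506). Plates were inferred from the prefix of the cell names and are called A to D here. No label used here states that a prefix marks a plate. A and B held 7 and 10 endothelial cells beside 133 and 147 microglia, and C and D held 50 and 44 endothelial cells and no microglia. Marker genes went with both class labels as endothelial cells and macrophages. All 10 endothelial markers exceeded microglia by 4-fold or more, with a summed level of 20409 CPM against 182 CPM, and all 12 macrophage markers exceeded the endothelial class by as much, at 26129 CPM against 149 CPM. The microglia class also held Mrc1, a marker of border-associated macrophages, at 10 or more reads in 188 cells, against 141 for P2ry12 and 77 for Tmem119, both microglia markers. Markers of fenestrated endothelium, the type with pores closed by diaphragms, were also high: 4 of 4 exceeded microglia by 4-fold or more, and Plvap, the diaphragm protein, stood at 6418 to 8072 CPM on the 4 plates.

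Start regions are shown first for the genes on which the comparison turns. Col4a1 and Col4a2, the paired collagen IV chains, are transcribed away from each other from overlapping starts. Both strands of that shared region, chr8:11312801-11312830, are printed 5′ to 3′ with the 22 bases that lie between the 2 starts in capitals. Hspg2 had the largest class ratio of the 10 genes among those with reads in both classes, Col13a1 had 0 reads in microglia, and Col15a1 alone reached 10 reads in single microglia. Their upstream sequences are chr4:137468553-137468768 (plus strand, upstream of the annotated exon), chr10:61979109-61979358 (minus strand) and chr4:47207762-47208011 (plus strand), free of annotated exons; those of Col13a1 and Col15a1 end at the gene's start, and that of Hspg2 ends 34 bases before it, where an annotated exon begins, with matches of the motif GGGCGG in capitals. Sequences and starts are from RefSeq on GRCm38.p6.
Col4a2 strand: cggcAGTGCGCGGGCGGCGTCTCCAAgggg
Col4a1 strand: ccccTTGGAGACGCCGCCCGCGCACTgccg
Hspg2: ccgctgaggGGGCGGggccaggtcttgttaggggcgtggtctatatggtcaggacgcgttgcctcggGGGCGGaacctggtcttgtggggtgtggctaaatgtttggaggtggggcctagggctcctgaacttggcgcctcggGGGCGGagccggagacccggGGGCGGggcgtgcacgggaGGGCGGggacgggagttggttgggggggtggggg
Col13a1: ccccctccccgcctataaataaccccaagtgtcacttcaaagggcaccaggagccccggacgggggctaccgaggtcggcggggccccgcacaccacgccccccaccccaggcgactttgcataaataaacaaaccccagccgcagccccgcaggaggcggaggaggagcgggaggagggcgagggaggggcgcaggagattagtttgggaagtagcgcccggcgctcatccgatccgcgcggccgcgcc
Col15a1: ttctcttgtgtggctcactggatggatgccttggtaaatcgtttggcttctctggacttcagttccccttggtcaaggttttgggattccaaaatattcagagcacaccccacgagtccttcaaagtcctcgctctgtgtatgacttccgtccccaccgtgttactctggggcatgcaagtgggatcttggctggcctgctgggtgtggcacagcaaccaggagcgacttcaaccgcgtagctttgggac

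For 8 of the 10 genes the RefSeq table gave 9 start sites, 2 of them for Col18a1. Each 250-base window before a start was searched on both strands for GGGCGG, the core of the GC box, and for CCAAT; overlapping matches were counted. The Hspg2 window held 5 GGGCGG matches, and the windows of Col13a1 and Col15a1 held none of either motif. GGGCGG was in 5 of the 9 windows, against 32.7% of all 32851 mouse windows of this length, and CCAAT was also in 5 of 9, against 33.8%. The Col15a1 window had a GC content of 53.6%, close to the median of 52.4% over all windows. The Col4a1, Col4a2, Hspg2 and Col13a1 windows were at 74.4%, 73.6%, 70.0% and 68.8%. All 250 bases of the Col4a1 window lie in annotated Col4a2 exon, and all 250 of the Col4a2 window in annotated Col4a1 exon. A match describes these letters only.

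Basement membrane genes made up 0.713% of all gene reads in the endothelial class and 0.000867% in microglia. Of the 10 genes, 9 exceeded microglia by 4-fold or more in the endothelial class, against 11.7% of the 14989 genes that reached 1 CPM in at least 1 class; the exception was Col18a1, whose log2 ratio was 1.35 although its ratio of CPM without the added 1 was 4.64 (3.06 to 7.15). None was 4-fold higher in microglia, where 19.9% of measured genes were. The median log2 ratio of the 10 genes was 7.27 (range 1.35 to 10.63), and that of all measured genes was -0.36. Within plate A, 7 of the 9 genes measured there passed 4-fold toward endothelial cells, against 10.9% of all genes, and 0 passed it toward microglia, against 46.5%. Within plate B it was 9 of 9, against 11.5%, and again 0, against 48.4%. The log2 ratios on plate B ran from 4.18 for Col15a1 to 9.46 for Hspg2. On plate A they ran from 6.23 for Lama4 to 9.52 for Col4a2 in the 7 genes, and were -0.18 for Col15a1 and 0.52 for Lamb1. The plate A reads of Lama4 came from 1 of the 7 cells and those of Lamc1 from 2. In the endothelial class a cell held reads of 2 to 9 of the 10 genes (median 6), and in the microglia class of 0 to 4 (median 1), with 132 microglia holding none.

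**Figure D1:**
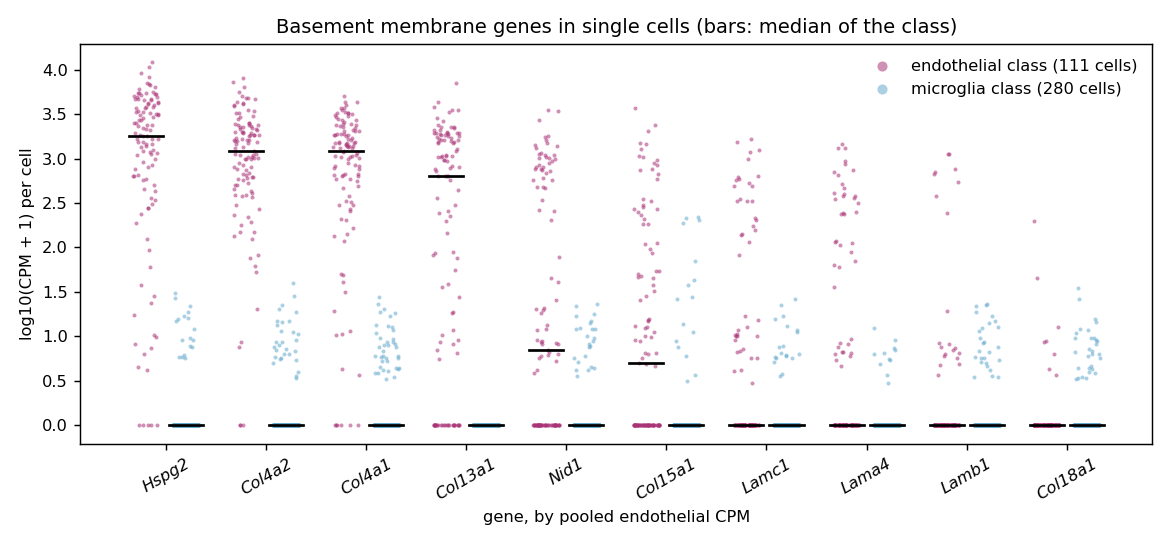
Level of each gene in every cell, as log10(CPM + 1), for the 111 endothelial-class cells and the 280 microglia-class cells; each point is a cell, black bars are class medians, and horizontal scatter is random. Hspg2, Col4a1, Col4a2 and Col13a1 have endothelial medians above 600 CPM, while Lama4, Lamb1, Lamc1 and Col18a1 have medians at 0 in both classes.

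Levels of different genes were compared per length, as CPM per kilobase of exon in the endothelial class. Col4a2 was highest at 237, followed by Col13a1 at 208, Col4a1 at 185 and Hspg2 at 162. A middle group was Nid1 at 56.0 and Col15a1 at 33.6. The laminin chains were lower, with Lamc1 at 15.2, Lama4 at 9.82 and Lamb1 at 5.19, and Col18a1 was last at 0.487. The Poisson intervals of neighbours in this order did not overlap, but they cover counting error only. With the length of the longest transcript or of the coding sequence, Col13a1 came before Col4a2; with the longest transcript Lama4 came before Lamc1; and without plate C, Col4a1 came before Col13a1. The other ranks held under these 3 choices.

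**Figure D2:**
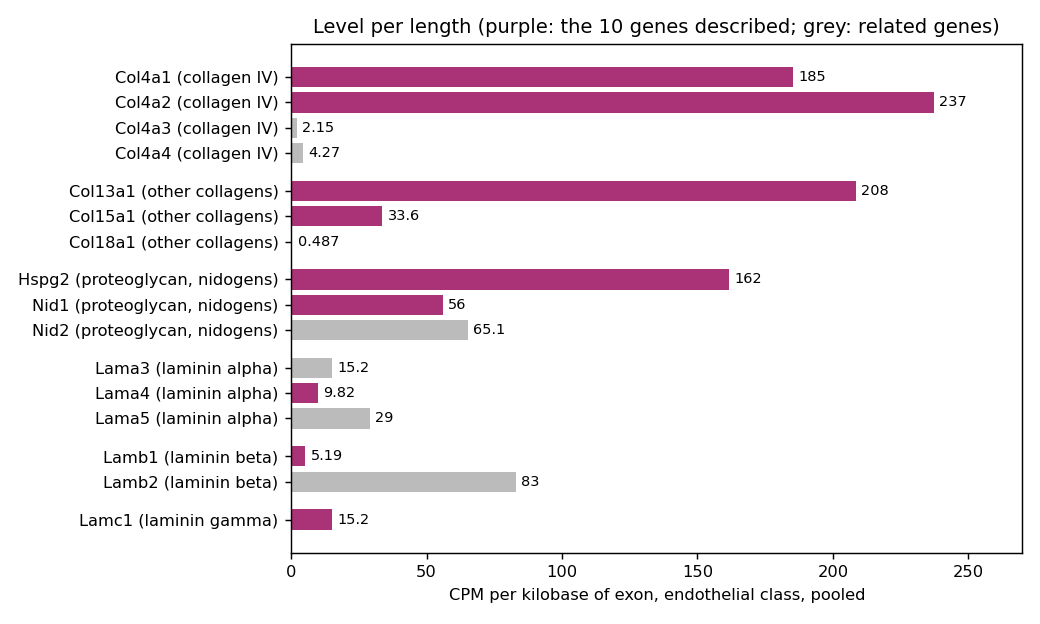
Level per length in the endothelial class, as CPM per kilobase of exon from reads pooled over 111 cells; purple bars are the 10 genes and grey bars are related genes. The collagen IV pair, Col13a1 and Hspg2 stand between 162 and 237, Lamb2 at 83.0 stands above Lamb1 at 5.19, and Col4a3 and Col4a4 stay at 2.15 and 4.27.

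Collagen IV of most basement membranes is a trimer of the Col4a1 and Col4a2 chains. Over the endothelial cells, Col4a1 was at 0 CPM in the lowest cell, 1217 in the median cell and 5096 in the highest; the pooled level was 1383 CPM (1367 to 1399) against 0.905 CPM in microglia. Col4a2 was at 0, 1215 and 8053 CPM in the lowest, median and highest cell, with a pooled level of 1570 CPM (1553 to 1587) against 0.674 CPM. Both chains were thus read in nearly every endothelial cell: Col4a1 in 105 of 111 and Col4a2 in 108. Pooled ratios were 1528-fold for Col4a1 (95% interval 1134 to 2112) and 2331-fold for Col4a2 (1651 to 3409). In microglia both were read at most 2 times in a cell, in 39 cells for Col4a1 and 30 for Col4a2. The highest microglia cell was at 26.5 CPM for Col4a1 and 38.5 CPM for Col4a2, below the endothelial lower quartiles of 357 and 500 CPM, but the classes overlap: 6 endothelial cells had no Col4a1 read and 6 more were at or under the highest microglia cell, and for Col4a2 it was 3 and 3.

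The collagen IV chains were usually read together, but not in a fixed proportion. At 10 or more reads, 91 of 111 endothelial cells had both chains, 13 had Col4a2 without Col4a1, 4 had Col4a1 without Col4a2, and 3 had neither. Among the 91 cells the ratio of Col4a1 to Col4a2 per kilobase had a median of 0.811, with quartiles of 0.397 and 2.38 and extremes of 0.0430 and 17.9. Col4a1 was the higher chain in 42 of these cells and Col4a2 in 49. The pooled ratio was 0.781, and by plate it was 0.452 on A, 2.03 on B, 0.701 on C and 0.823 on D. Plate B, with 10 endothelial cells, was the only plate of the 4 where pooled Col4a1 exceeded Col4a2. Annotated exons of the 2 genes overlap by 22 bases on opposite strands, and the use of strand in counting is not given in the sources used here.

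**Figure D3:**
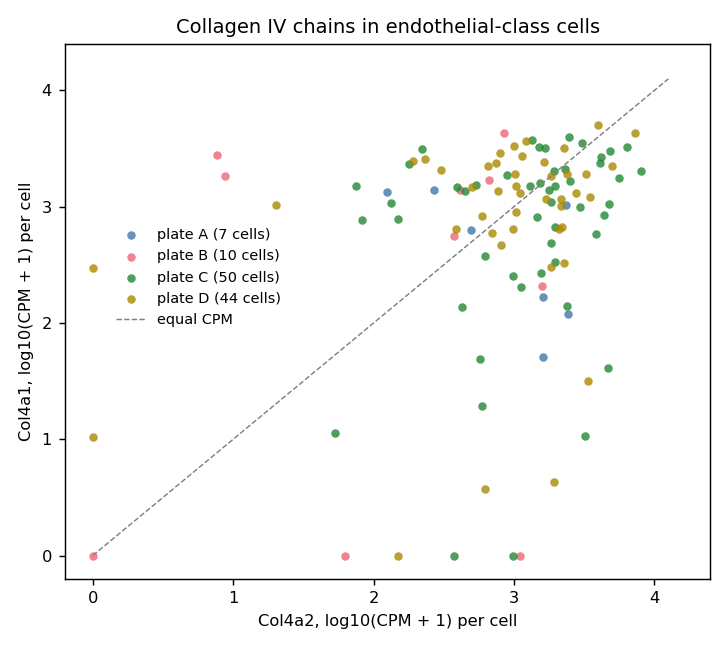
Col4a1 against Col4a2 in the 111 endothelial-class cells, both as log10(CPM + 1); each point is a cell, coloured by plate, and the dashed line marks equal CPM. Most cells sit in the upper right with both chains read, and points spread on both sides of the line.

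The other collagen IV chains build networks found in fewer tissues, such as the kidney glomerulus. Of 4, 2 were measured, and both passed 4-fold toward the endothelial class, against 11.7% of all genes. Their median log2 ratio was 4.01, against -0.36 for all genes. Col4a3 was at 21.4 CPM against 2.57 CPM, and Col4a4 at 45.3 CPM against 0.126 CPM. Of the 457 endothelial Col4a3 reads 226 came from 1 cell, and without it, a choice made after seeing the data, Col4a3 was at 10.9 CPM with a log2 ratio of 1.74, below 4-fold. Col4a3 was also read in a larger share of microglia, 35.7%, than of endothelial cells, 22.5%. For Col4a4, 607 of 967 reads came from 1 cell, and the log2 ratio without it was 4.00. Few cells were well covered: 10 or more reads of Col4a3 were in 5 endothelial cells and of Col4a4 in 4, with none sharing both. Col4a5 had 1 endothelial read and Col4a6 had 0, where a count of 0 allows up to 3 reads over the class.

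Hspg2 encodes perlecan, a large heparan sulfate proteoglycan that binds growth factors and links matrix networks. Its level was 0 CPM in the lowest endothelial cell, 1790 in the median cell and 12120 in the highest. The pooled level of 2314 CPM (2294 to 2335) against 0.463 CPM in microglia gave a log2 ratio of 10.63, and without the added 1 the ratio was 4998-fold (3301 to 7976), the largest among the 9 genes with reads in both classes. Reads were in 106 of 111 endothelial cells and in 18 of 280 microglia, with no microglia cell above 4 reads. By plate, Hspg2 was at 327 CPM on A, 1024 on B, 2871 on C and 2242 on D, so the 2 plates that held only endothelial cells were the higher ones. Over the cells of all plates, Hspg2 varied more than most genes of like level. Genes of like level had a mean CPM within 1.5 times of the gene's own and were not matched for length. Its coefficient of variation (SD over mean of per-cell CPM) was 0.974. The median of 45 such genes was 0.597, and their upper quartile was 0.751. Col4a2 (0.958 against 0.928), Col13a1 (1.20 against 1.17) and Col15a1 (2.51 against 2.35) also lay above the upper quartile of their like-level genes. Plate means were not subtracted for any coefficient of variation given here, so differences between plates are part of this spread.

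Nidogens bridge the laminin and collagen IV networks. Nid1 was at 0 CPM in the lowest endothelial cell, 6.01 in the median cell and 3480 in the highest, and its pooled level was 389 CPM (380 to 397) against 0.589 CPM in microglia, or 659-fold (456 to 993). Its reads were uneven: 64 of 111 cells had any, 42 had 10 or more, and 21 cells held 80% of all Nid1 reads. Nid2, the other nidogen, named after its values were seen, was at 337 CPM against 17.7 CPM. Per length the nidogens were close, at 56.0 for Nid1 and 65.1 for Nid2. At 10 or more reads, 19 cells had both, 67 had at least 1 and 44 had neither. Nid1 shares 143 of its 6943 exonic bases with an antisense gene, and reads within that stretch cannot be told apart without strand.

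Laminins need 1 chain of each kind, and Lama4, Lamb1 and Lamc1 supply an alpha, a beta and a gamma chain. Lama4, an alpha chain typical of endothelium, was at 119 CPM (114 to 123) against 0.232 CPM in microglia, or 512-fold (286 to 1027). Lamb1 was at 51.5 CPM (48.5 to 54.6) against 0.568 CPM, or 90.6-fold (61.9 to 138). Lamc1, the most widely used gamma chain, was at 126 CPM (121 to 130) against 0.421 CPM, or 298-fold (193 to 489). In contrast to collagen IV, each laminin gene was unread in most endothelial cells, with medians of 0 CPM and highest cells at 1456, 1129 and 1678 CPM. Lama4 was read in 41 cells, Lamb1 in 21 and Lamc1 in 42.

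All 3 laminin genes were read together in 3 of 111 cells, and at 10 or more reads in 0, where a count of 0 allows up to 2.70% of cells with such reads, for counting error only. None of the 3 was read in 39 cells. Lamb1 was the most concentrated laminin gene, with 6 cells holding 80% of its reads and 1 cell 33.7%. Genes of like level were similarly uneven: the coefficient of variation of Lamb1 was 3.88 against a median of 3.73 over 2475 genes, that of Lama4 was 2.36 against 2.65, and that of Lamc1 was 2.57 against 2.66. Cells without a read were usual for genes at these levels, and a missing read does not show that the cell lacked the transcript.

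Among the 8 other laminin chains, 3 were measured and all passed 4-fold toward the endothelial class, against 11.7% of all genes. Their median log2 ratio was 7.33, against -0.36 for all genes. Lamb2, an alternative beta chain common in vessels, was at 505 CPM against 11.1 CPM, and per length at 83.0 it stood above Lamb1 at 5.19. At 10 or more reads, 52 endothelial cells had Lamb2 without Lamb1, 4 had Lamb1 without Lamb2, and 4 had both. The alpha chain Lama5 was at 330 CPM against 0.442 CPM, and Lama3 at 164 CPM against 0.0210 CPM. Per length they were at 29.0 and 15.2, and Lama4 was at 9.82. The order of Lama3 and Lama4 rests on the exon union, which is 12068 bases for Lama4 against 6046 in its longest transcript. Lama3 and Lama5 were not compared with Lama4 by other lengths. Lamc3 was at 0.140 CPM, and Lamb3 had 0 reads in both classes. With all chains counted, 32 cells had reads of an alpha, a beta and a gamma chain, and 10 did so at 10 or more reads of each; a gamma chain was the least often read, in 43 cells.

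Col13a1 encodes a transmembrane collagen that sits at cell adhesion sites. It was at 0 CPM in the lowest endothelial cell, 643 in the median cell and 7032 in the highest, with a pooled level of 960 CPM (947 to 973). No read fell in any of 280 microglia, and a floor of 3 counts allows up to 1.07% of cells with a read, which is not a limit on cells expressing it, and a level of 0.0631 CPM; against that floor Col13a1 was at least 15198-fold higher in the endothelial class. It was the single gene of the 10 with no microglia read. Reads were in 85 of 111 endothelial cells. By plate, 3 of 7 cells on A and 4 of 10 on B had reads, at 203 and 245 CPM, and 44 of 50 on C and 34 of 44 on D, at 1316 and 830 CPM.

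Col15a1 and Col18a1 encode related collagens of the basement membrane zone that carry glycosaminoglycan chains; a fragment of the Col18a1 protein is endostatin. Col15a1 was at 0 CPM in the lowest endothelial cell, 3.98 in the median cell and 3684 in the highest, and 14 cells held 80% of its reads. The pooled level was 213 CPM (207 to 220) against 4.08 CPM in microglia, or 52.3-fold (45.3 to 60.7), with reads in 58 endothelial cells. Its plates spread widely, from 4.16 CPM on A and 83.9 on B to 162 on C and 324 on D. Within plate A the log2 ratio was -0.18, from 4 endothelial reads in 7 cells, and within plate B it was 4.18.

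Col15a1 was also the single gene of the 10 read 10 or more times in single microglia. Its 194 microglia reads fell in 16 cells, and 5 of these had 10 or more, at 75, 30, 23, 17 and 12 reads; no microglia cell reached 10 reads for any of the other 9 genes. The first 4 of these cells had 459 to 2380 reads of Csf1r, the macrophage growth factor receptor, and the fifth had 8. All 5 had reads of Mrc1, a macrophage mannose receptor (2, 233, 338, 34 and 348 reads), 0 reads of Plvap and 0 to 2 of Pecam1. In the same order, P2ry12 had 1025, 1, 121, 0 and 2 reads. The cell with most Col15a1 reads was thus high in P2ry12 and low in Mrc1. Col15a1 overlaps an antisense gene by 14 exonic bases.

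Col18a1 was close to unread. It had 73 endothelial reads, 3.42 CPM (2.68 to 4.30), against 0.737 CPM in microglia, a log2 ratio of 1.35. Of these reads 60 came from 1 cell on plate D, and the others came from 7 cells. That cell also had the highest summed level of mural markers in the class, 8348 CPM, with 2025 reads of Acta2, the smooth muscle actin, and 976 of Plvap. Without it and without the highest microglia cell, the log2 ratio was -0.07. The part of mural RNA in the Col18a1 value was not tested.

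Mural cells, the pericytes and smooth muscle cells of vessels, also make several of these proteins. Of 10 mural markers 8 were measured, and 6 passed 4-fold toward the endothelial class, against 11.7% of all genes. None was at 0 reads. For each of the 6, most endothelial reads came from 1 cell, but not from the same cell for all. The top cells of Acta2, Rgs5 and Pdgfrb were different cells. The top cell held 2025 of 2822 reads for Acta2, 702 of 1336 for Rgs5 and 317 of 344 for Myh11. For Pdgfrb it was 217 of 276, for Cspg4 120 of 131 and for Abcc9 112 of 128. The summed level of the 10 markers per cell ran from 0 CPM over a median of 15.3 to 8348 in the endothelial class. In microglia it ran from 0 over 10.1 to 1269. Leaving out the 6 endothelial cells at 500 CPM or more, a choice made after seeing the data, moved Lamb1 from 51.5 to 37.3 CPM and Col18a1 from 3.42 to 0.666 CPM. Hspg2 was then at 2425 CPM, Col4a1 at 1412, Col4a2 at 1643, Nid1 at 412, Lama4 at 112 and Lamc1 at 128, and again 9 of the 10 genes passed 4-fold toward the endothelial class. Fibroblast markers summed to 3.42 CPM in the endothelial class and 27.8 CPM in microglia, and the interstitial collagens Col1a1, Col1a2 and Col3a1 were at 0.889, 1.08 and 0.468 CPM in endothelial cells.

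**Figure D4:**
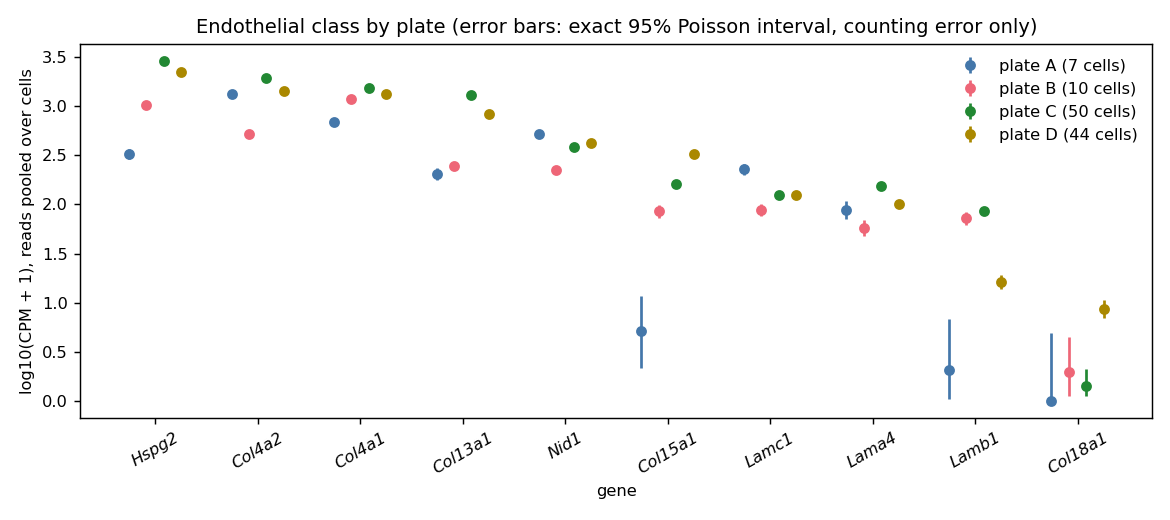
Level of each gene in the endothelial class by plate, as log10(CPM + 1) of reads pooled over the cells of a plate; error bars are exact 95% Poisson intervals for counting error only, and plates A to D hold 7, 10, 50 and 44 cells. Col4a1, Nid1, Lama4 and Lamc1 stay within 2.24 to 2.70 times between the lowest and highest plate. Col4a2, Col13a1 and Hspg2 span 3.73, 6.49 and 8.77 times. Col15a1 and Lamb1 span 77.9 and 82.5 times, where the lowest plate, A, holds 4 reads and 1 read.

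Between the 2 large plates, C and D, most levels were close. C stood above D by 1.15 times for Col4a1, 1.35 for Col4a2, 1.28 for Hspg2, 1.53 for Lama4 and 1.59 for Col13a1. Nid1 and Lamc1 were nearly equal, at 0.916 and 0.999 times. Lamb1 was further apart, at 85.7 CPM on C and 15.3 on D, or 5.62 times. Col15a1 was lower on C, at 0.499 times, and Col18a1 had the widest gap of the 10, at 0.0552 times. For Col18a1, 60 of the 67 plate D reads were in the 1 cell with the highest summed mural markers. Over all plates, 6 cells held 80% of Lamb1 reads and 14 cells held 80% of Col15a1 reads, and the differences between plates were not tested.

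Across the 111 endothelial cells, correlations between the 10 genes were weak. Over the 45 pairs, Pearson's r of log2(CPM + 1) with plate means subtracted ran from -0.18 to 0.32 with a median of 0.05; 4 pairs were above 0.2. These were Col4a1 with Hspg2 at 0.32, Col4a1 with Col4a2 at 0.24, Col4a2 with Col15a1 at 0.23 and Col4a1 with Col13a1 at 0.22. Within plate C the first of these was 0.04, and within plate D it was 0.44. Cells differ in depth, and no finding is drawn from coefficients of this size.

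**Figure D5:**
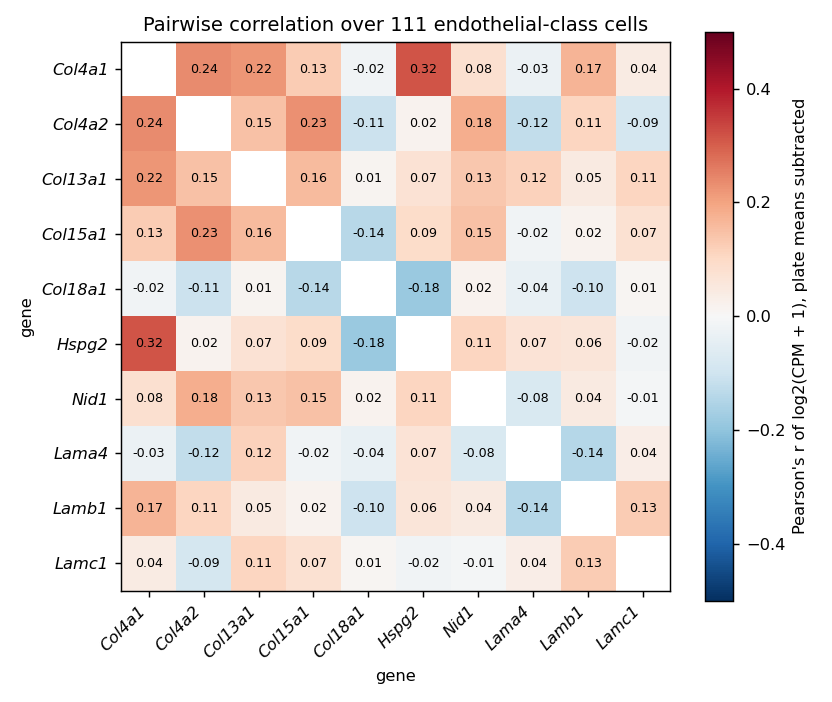
Pearson's r between each pair of the 10 genes over 111 endothelial-class cells, from log2(CPM + 1) with plate means subtracted; colour runs from -0.5 (blue) to 0.5 (red). The largest value is 0.32, for Col4a1 with Hspg2, and the lowest is -0.18, for Col18a1 with Hspg2.

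Genes whose pattern over these cells was most like each member were taken from 1186 genes read in at least 50% of endothelial cells. The largest coefficients were 0.42 for Nid1 with Ednrb, the endothelin receptor B, 0.39 for Hspg2 with Plpp1, a lipid phosphatase, and 0.38 for Lamc1 with the chaperone gene Dnajb1. Col13a1 was most like Selenom at 0.37, Lamb1 like Sub1 at 0.36, and Col18a1 like Acta2 at 0.35. Col18a1 was unread in 103 endothelial cells, and 60 of its 73 reads were in the 1 cell with 2025 Acta2 reads. Col4a1 was most like Jam3, a junction adhesion molecule, at 0.32, and Lama4 like S100a11 at 0.31. Col15a1 was most like Nfe2l1 at 0.30 and Col4a2 like Gja1, a gap junction connexin, at 0.29. All these values are low, and they are given as a description of these cells.

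Other matrix proteins of vessels were mostly higher in the endothelial class too: of 32 listed, 23 were measured, 18 passed 4-fold in that direction (11.7% of all genes did) and 2 in the other (19.9%), with a median log2 ratio of 4.17. Egfl7, an endothelial secreted factor, was at 2538 CPM against 70.9 CPM, Tinagl1 at 1798 against 2.27 CPM, and Mmrn2, an endothelial matrix glycoprotein, at 1295 against 1.33 CPM. Ltbp4, which binds latent TGF-beta, had the highest log2 ratio of the list, 9.23. Sparc, a collagen-binding glycoprotein, was high in both classes, at 3373 and 983 CPM and a log2 ratio of 1.78. Emilin2 was the lowest, at 0.421 CPM against 65.0 CPM.

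Of 22 collagen processing genes measured, 10 passed 4-fold toward the endothelial class, against 11.7% of all genes, and 3 toward microglia, against 19.9%, with a median log2 ratio of 1.32. Serpinh1, the collagen chaperone of the endoplasmic reticulum, was at 298 CPM against 0.463 CPM, the highest log2 ratio of the list at 7.68. Tgm2, a crosslinking transglutaminase, was at 1209 against 25.7 CPM, and Crtap, part of a prolyl hydroxylation complex, at 236 against 39.9 CPM. P4hb, a subunit of prolyl hydroxylase, was high in both, at 829 and 516 CPM. P3h2, a prolyl hydroxylase, went the other way, at 0.187 against 96.1 CPM.

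Of 22 receptor genes measured, 11 passed 4-fold toward the endothelial class, against 11.7% of all genes, and 4 toward microglia, close to the 19.9% of all genes, with a median log2 ratio of 1.90. Bcam, a receptor for laminins that hold the Lama5 chain, was at 2122 CPM against 1.49 CPM, the highest log2 ratio at 9.73. Kdr, a VEGF receptor, was at 2888 against 4.82 CPM. Nrp1, a coreceptor for VEGF and semaphorins, was read in both classes, at 2652 and 524 CPM, as was the integrin beta chain Itgb1, at 714 and 316 CPM. The syndecan Sdc4 was the lowest, at 0.609 against 274 CPM.

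Of 25 matrix proteases and inhibitors measured, 8 passed 4-fold toward endothelial cells, against 11.7% of all genes, and 10 toward microglia, against 19.9%, with a median log2 ratio of -0.73. Timp3, a metalloprotease inhibitor that binds to matrix, was at 3147 CPM against 10.9 CPM, and the membrane metalloprotease Mmp15 at 366 against 0.674 CPM. The cathepsins Ctsb and Ctss, lysosomal proteases, were higher in microglia, at 4861 against 695 CPM and 3075 against 2.53 CPM. Ctsl was near equal, at 759 CPM in endothelial cells and 861 in microglia.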

How the data were processed

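Libraries were made with Smart-seq2, per the labels' protocols. The deposited values are whole-number read counts per gene, not normalized. The submitters' processing notes name featureCounts, Subread 1.4.6-p5, SAMtools 1.16.1 and the build GRCm39. For the aligner, annotation, strand and handling of duplicates and multimappers, nothing is stated in the sources used here. Each column's class came from the deposited cell table, and 0 columns were left out or identical; no doublet caller was run. Reads were summed per class, as no label gives animals.

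Ratios have exact conditional binomial and shares exact Clopper-Pearson 95% intervals, for counting error only. A gene is measured at 1 CPM in either class. Lengths are GENCODE M21 exon unions, of an older build, and RefSeq promoters are on GRCm38.p6. The genes and lists were chosen with earlier results of these data known. One listed gene is not reported here. Named list genes are up to 4 most abundant per length plus the extreme ratios; likeness excludes mitochondrial, ribosomal and predicted genes. Alternatives covered pseudocount, filter, scaling, plates, thinning, fold and length. Only the pooled ratio, its interval and the 4-fold call were tested on simulated data, drawn as Poisson counts without spread between cells. TMM scaling used edgeR 4.0.16 in R 4.3.3; the rest ran in Python 3.11.15 with pandas 2.3.3, scipy 1.17.1, numpy 2.4.6 and matplotlib 3.10.9.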

Additional observations from a re-analysis of the deposited data

How the results depend on the processing

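Between 7 and 10 of the genes passed 4-fold toward the endothelial class under the other settings of pseudocount, scaling, plates, thinning and cells left out; the lowest number came from plate A, with 9 genes measured and 7 endothelial cells. At 8-fold it was 9, and at 2-fold 10. Over all genes measured, the count of 1761 was 831 with a pseudocount of 10 CPM, which shrinks the ratio of low genes, and 1420 to 2225 under the other settings. The log2 ratio of Col15a1 turned to -0.18 within plate A. That of Col18a1 turned to -0.38 within plate A, -0.024 within plate B, -0.23 without plate D, -0.068 without the highest cell of each class and -0.060 without the 6 cells with mural markers. The other 8 genes kept their direction in all settings, with Lamb1 lowest at 0.52 within plate A. Within plates A and B the median of all genes shifted by -1.37 and -1.51 on the log2 scale; the cause was not tested. Median-of-ratios scaling shifted it by 0.13. Thinned to 80000 reads per cell, which left out 53 microglia and 0 endothelial cells, shares of endothelial cells with a read were 97.3% for Col4a2, 92.8% for Col4a1, 91.0% for Hspg2 and 11.7% for Lamb1, against 97.3%, 94.6%, 95.5% and 18.9% unthinned. No paired analysis was possible because replicate numbers only name cells in accession order and no result comes from a test; plates A and B hold both classes, and their within-plate values are given instead. With 1 sample per class, variation between animals is unknown.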
